A study of Danio rerio with 4 samples.

Results

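The genes of T lymphocyte identity and signalling described here, 9 of the 14781 genes in the deposited count table, were followed in guts of adult zebrafish (Danio rerio) that carried 1 or 2 mutant copies of irf8. They were taken by name: the coreceptor gene cd8a, the kinase genes lck and zap70, and the transcription factor genes tcf7, gata3, runx3, tbx21, eomesa and foxp3a. Messenger RNA was sequenced from 2 irf8 heterozygous and 2 irf8 homozygous mutant adults, untreated, all with the st95 allele, so the control fish also carried a mutant copy. Wild-type fish were not analysed here. irf8 encodes a transcription factor required for macrophage development. The submitters describe the 4 samples as separate animals, and each sample is 1 library of the whole gut. fabp2 and vil1, defining genes of enterocytes, had at least 31482 and 9350 counts in every library.

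T lymphocytes recognise antigen through the T cell receptor, with the CD4 or CD8 coreceptor binding the presenting MHC molecule. The kinase LCK, carried by the coreceptors, phosphorylates the receptor's signalling tails, and ZAP70 docks there and phosphorylates adaptors. The factors set which T cell is made: TCF7 (TCF-1) and GATA3 act early in the thymus, RUNX3 in CD8 cells, GATA3 and TBX21 (T-bet) in opposing helper fates, EOMES in cytotoxic and memory cells, and FOXP3 in regulatory T cells. These roles were worked out mostly in mouse and human. Several of the factors also work outside T cells, RUNX3 and GATA3 among them. The gut wall holds T cells within the epithelium and beneath it.

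Libraries held 6350840 and 10391963 counts in heterozygous replicates 1 and 2, and 6389553 and 9351100 in homozygous replicates 1 and 2. Levels are given as CPM, counts scaled to a common library size by TMM. Where a gene had no count, the upper limit of 3 counts corresponds to 0.512, 0.328, 0.444 and 0.277 CPM in that order, for counting error only. irf8 itself was at 30 and 50 counts in the heterozygous fish and at 25 in each homozygous one, a log2 fold change of -0.82 ± 0.58 (SE), and an allele need not remove its transcript. Heterozygous replicate 2 stood apart, with 17.6% of its counts in 16 pancreas marker genes against 0.254% to 2.60% in the other libraries. Values without that library are therefore given beside the main results. Homozygous replicate 1 stood apart for the T lymphocyte genes themselves, as described below, and values without it are given too.

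Of the 9 genes, 6 were abundant enough to test and had the 2 homozygous libraries above the 2 heterozygous ones: cd8a, lck, zap70, tcf7, runx3 and foxp3a. Their fitted folds ran from 3.999 for lck to 20.98 for foxp3a, and gata3 was the 1 tested gene on the other side, 1.33-fold lower. tbx21 and eomesa were near the limit of detection in every library. The edgeR quasi-likelihood fit over 9701 genes, with Benjamini-Hochberg adjusted p called at 0.05, called 0 of the 7 tested genes, and 0% of all tested genes. The edgeR adjusted p was 0.699 for the 6 higher genes and 0.898 for gata3. At an unadjusted edgeR p under 0.05 there were 3 (runx3, tcf7 and foxp3a), all higher, beside 3.65% of all tested genes in that direction and 6.47% in either. DESeq2's Wald test gave an adjusted p for 4 of the 7 (runx3, foxp3a, lck and zap70) and called 1 of them, runx3, beside 0.358% in that direction of the 8384 genes with a DESeq2 adjusted p.

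Thus 6 of the 7 tested genes had both homozygous libraries above both heterozygous ones, where 19.9% of all tested genes did. Of these 6, foxp3a, tcf7 and cd8a reached the abundance the filter asks for, 1.27 CPM on the raw totals, only in homozygous libraries. Such a gene could pass only by being higher there. Neither this count, the count at an unadjusted edgeR p under 0.05, nor a median over the tested genes therefore stands as support. As a description, the median log2 fold change of the 7 was 2.56, beside -0.05 over all 9701 tested genes, whose 95th percentile was 1.38. Without heterozygous replicate 2 the median was 3.24, also with zap70 and foxp3a at the bounds given below, and without homozygous replicate 1 it was 1.99, with 7 and 6 of the 7 higher. Whole-gut RNA cannot tell more T lymphocytes from more of these transcripts in each cell.

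**Figure D1:**
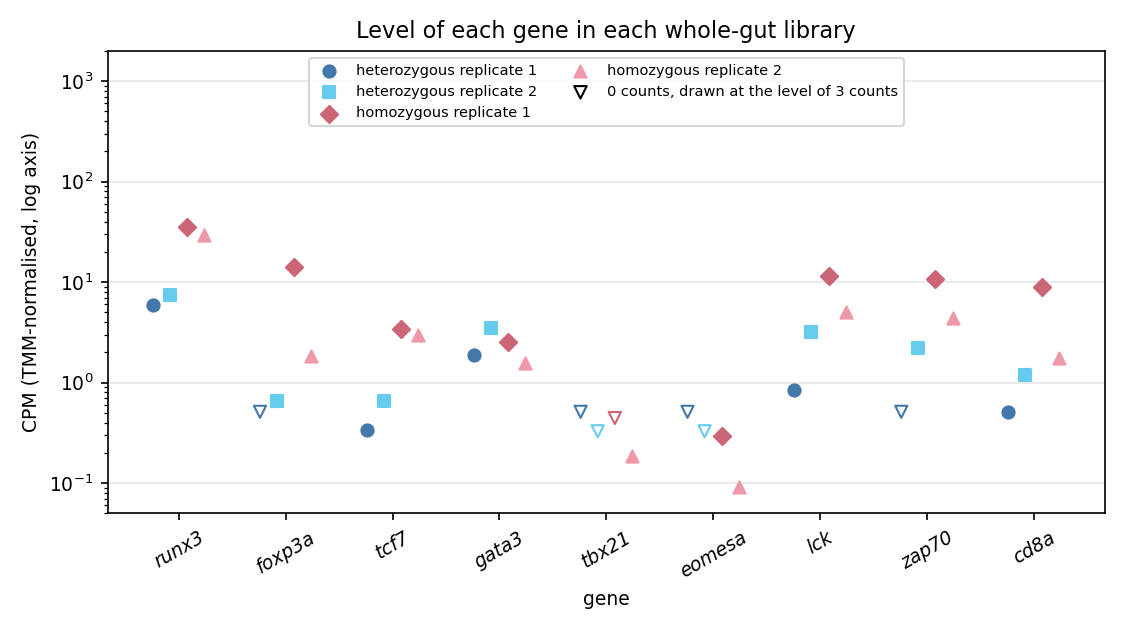
Level of each of the 9 genes in each library, as TMM-normalised CPM on a log axis, with 1 point per library and open triangles for 0 counts drawn at the level of 3 counts. Both homozygous libraries lie above both heterozygous ones for runx3, foxp3a, tcf7, lck, zap70 and cd8a, gata3 overlaps, and tbx21 and eomesa lie at or under the limit of 3 counts.

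The coreceptor gene cd8a (chromosome 21, 11467554 to 11470778, plus strand, 6 exons, danRer10 as all coordinates here) encodes a chain of CD8, the coreceptor of cytotoxic T cells. The heterozygous libraries held 0.512 and 1.203 CPM (3 and 11 counts), and the homozygous ones 8.88 and 1.75 CPM (60 and 19 counts). Homozygous replicate 1 was far above the other 3 libraries, and homozygous replicate 2 was just above heterozygous replicate 2. The log2 fold change was 2.56 ± 1.04 (SE), a 5.91-fold difference. Without homozygous replicate 1 it was 1.03 and without heterozygous replicate 2 it was 3.31.

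Of the 2 kinase genes, lck (chromosome 17, 25326349 to 25364029, minus strand, 13 exons) is the first in the receptor's signalling order. Its level was 0.853 and 3.17 CPM in the heterozygous libraries, against 11.6 and 5.08 CPM in the homozygous ones. The genotypes did not overlap, and the nearest libraries were heterozygous replicate 2 and homozygous replicate 2. The log2 fold change was 2.0 ± 0.82 (SE), or 1.34 without homozygous replicate 1 and 3.24 without heterozygous replicate 2.

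zap70 (chromosome 8, 20361210 to 20382280, plus strand, 13 exons), the gene of the kinase that LCK activates, had 0 and 20 counts in the heterozygous libraries, against 73 and 48 in the homozygous ones. That is 0 and 2.19 CPM against 10.8 and 4.43 CPM, again with no overlap. Its log2 fold change was 2.70 ± 1.34 (SE). Without homozygous replicate 1 it was 1.99, and without heterozygous replicate 1 it was 1.82. Against heterozygous replicate 1 alone, which had no count, zap70 was at least 14.9-fold higher in the homozygous mean and at least 8.65-fold higher in homozygous replicate 2 alone, taking 3 counts as the limit for heterozygous replicate 1.

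Among the factors, tcf7 (chromosome 21, 45227307 to 45296226, plus strand, 11 exons), a DNA-binding partner of beta-catenin used early in T cell development, was scarce. Its counts were 2 and 6 in the heterozygous libraries, against 23 and 32 in the homozygous ones, which is 0.341 and 0.656 CPM against 3.41 and 2.95. The log2 fold change was 2.60 ± 0.83 (SE), a 6.05-fold difference, and it ranged from 2.28 to 3.15 with each library left out in turn.

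runx3 (chromosome 13, 44955862 to 45018380, minus strand, 8 exons), a RUNT-domain factor of CD8 and other cytotoxic lymphocytes, had the most counts of the 9 genes in each library and close replicates. Its level was 5.97 and 7.44 CPM in the heterozygous libraries, against 35.1 and 29.5 CPM in the homozygous ones. The gap between the genotypes exceeded the difference within either genotype. Its log2 fold change was 2.26 ± 0.37 (SE), and it ranged from 2.15 to 2.42 with each library left out in turn. By unadjusted p it ranked 6 of 9701 genes. DESeq2 called it at an adjusted p of 0.0071, where that of edgeR was 0.699, and with 1 library left out DESeq2 did not call it. The DESeq2 adjusted p was then 0.117 without heterozygous replicate 1, 0.078 without heterozygous replicate 2, 0.804 without homozygous replicate 1 and 0.752 without homozygous replicate 2.

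foxp3a (chromosome 8, 25697183 to 25710403, minus strand, 13 exons), the forkhead factor of regulatory T cells, had 0 and 6 counts in the heterozygous libraries, against 96 and 20 in the homozygous ones. That is 0 and 0.656 CPM against 14.2 and 1.85 CPM, so homozygous replicate 1 held most of the transcript seen. The log2 fold change was 4.39 ± 1.49 (SE), the highest of the 7 tested genes, and 2.38 without homozygous replicate 1. Against heterozygous replicate 1 alone, at 0 counts, foxp3a was at least 15.7-fold higher in the homozygous mean, but the bound was 3.60-fold for homozygous replicate 2 alone.

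gata3 (chromosome 4, 25065312 to 25075312, minus strand, 6 exons), the zinc finger factor of early thymocytes and type 2 helper cells, did not follow the others. The heterozygous libraries held 1.88 and 3.50 CPM and the homozygous ones 2.52 and 1.57 CPM, and the genotypes overlapped. The log2 fold change was -0.41 ± 0.75 (SE) and its sign changed to 0.10 without heterozygous replicate 2.

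tbx21 (chromosome 12, 28634287 to 28655915, plus strand, 6 exons), the gene of the T-box factor of type 1 helper cells, had 2 counts in homozygous replicate 2 and 0 in the other 3 libraries. eomesa (chromosome 19, 861018 to 867262, minus strand, 6 exons), a T-box gene that also acts in the early embryo, had 2 and 1 counts in the homozygous and 0 in both heterozygous libraries. Neither passed the count filter, and no difference was detectable for them at this depth.

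**Figure D2:**
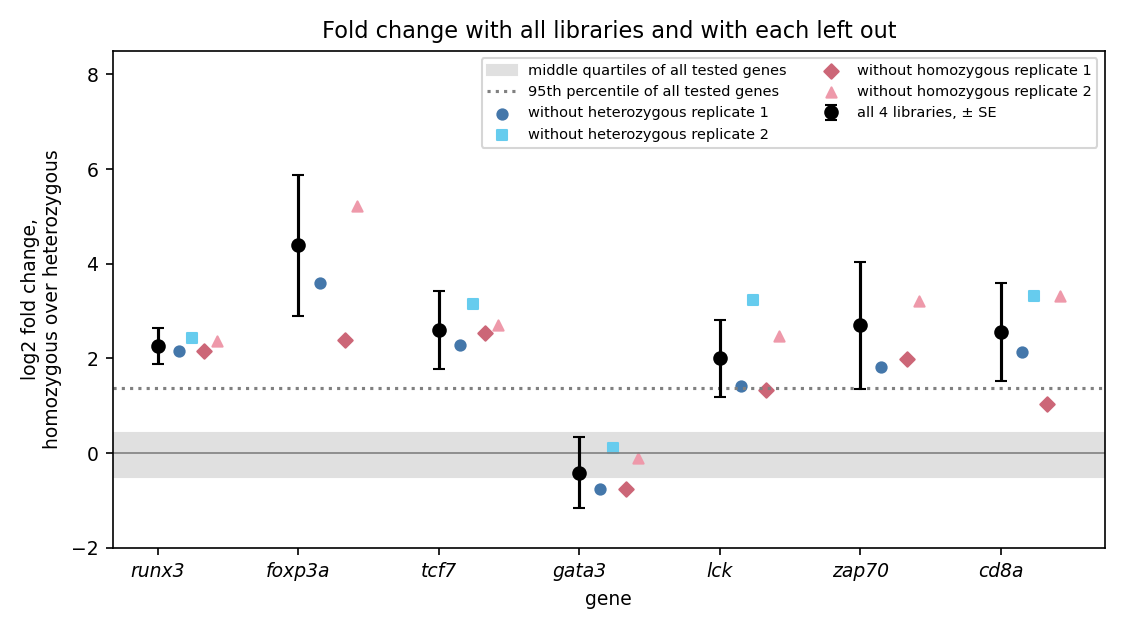
Log2 fold change of homozygous over heterozygous gut for the 7 tested genes (black, ± SE, 2 libraries per genotype), with the value after leaving out each library in colour. The grey band spans the middle quartiles of all 9701 tested genes and the dotted line is their 95th percentile, 1.38. The points without heterozygous replicate 2 are not drawn for foxp3a and zap70, which had 0 counts in heterozygous replicate 1. runx3 and tcf7 stay between 2.15 and 3.15 in all cases, cd8a drops to 1.03 without homozygous replicate 1, and gata3 runs from -0.75 to 0.10.

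The 9 genes together took 0.000882% of the counts of heterozygous replicate 1 (56 counts, exact Clopper-Pearson 95% interval 0.000666 to 0.00115), and 0.00166% of heterozygous replicate 2 (0.00142 to 0.00192). In homozygous replicates 1 and 2 they took 0.00917% (0.00844 to 0.00994) and 0.0055% (0.00503 to 0.00599). These intervals do not overlap between any of the 4 libraries. They cover counting error only, and so also separate fish of the same genotype. The mean share was 5.78 times higher in homozygotes, 4.33 times without homozygous replicate 1 and 8.32 times without heterozygous replicate 2. With the pancreas list left out of the totals it was 5.15 times higher. Heterozygous replicate 1 was the lowest library for 6 of the 7 tested genes and homozygous replicate 1 the highest for 6 of 7, with nearly equal library totals.

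The homozygous libraries differed from each other gene by gene. The ratio of replicate 1 to replicate 2 was 7.70 for foxp3a (95% counting interval 4.72 to 13.2) and 5.07 for cd8a (2.98 to 8.99), both above 2.75, the 95th percentile of that ratio over all tested genes. For zap70 it was 2.44 (1.67 to 3.59) and for lck 2.28 (1.59 to 3.27). For runx3 it was 1.19 (1.0005 to 1.41), for tcf7 1.15 (0.645 to 2.03) and for gata3 1.60 (0.770 to 3.34). Thus the interval of runx3 lay below those of foxp3a, cd8a, zap70 and lck, and the intervals of tcf7 and gata3 held 1. The heterozygous libraries differed too. Their ratio of replicate 2 to replicate 1 was 3.72 for lck (1.42 to 12.3). For zap70, at 0 counts in heterozygous replicate 1, the lower limit of that ratio was 3.16. The heterozygous intervals of runx3, foxp3a, tcf7, gata3 and cd8a held 1.

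The makeup of the summed counts of the 9 genes varied as well. runx3 made up 62.5% of them in heterozygous replicate 1 (Clopper-Pearson 95% interval 48.5 to 75.1) and 39.5% in replicate 2 (32.2 to 47.3), while homozygous replicate 1 had 40.4% (36.4 to 44.5) and homozygous replicate 2 had 62.3% (57.9 to 66.5). That share did not separate the genotypes. foxp3a made up 0% and 3.49% in heterozygotes, and 16.4% (13.5 to 19.6) and 3.89% (2.39 to 5.95) in homozygous replicates 1 and 2, and the interval of heterozygous replicate 2 (1.29 to 7.44) overlapped that of homozygous replicate 2.

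**Figure D3:**
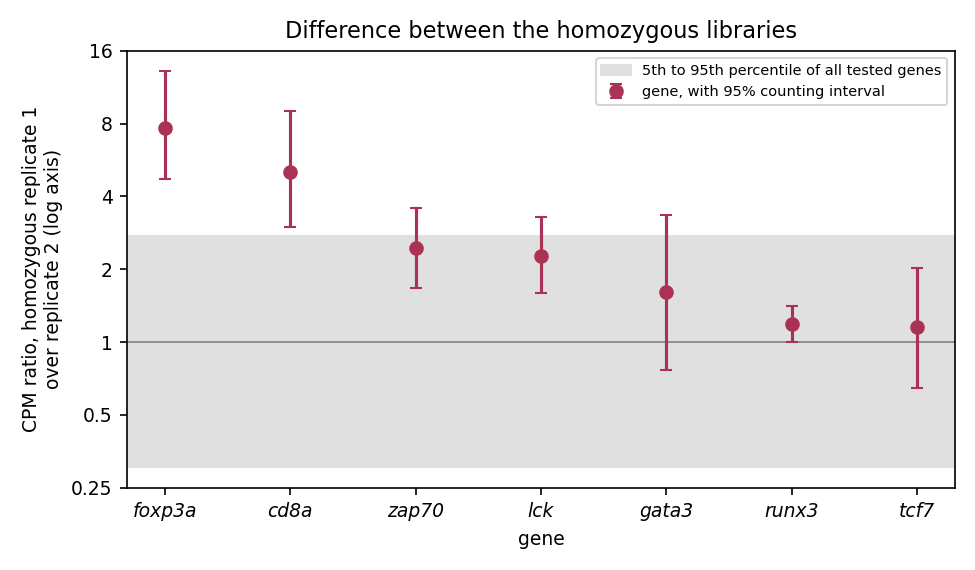
Ratio of CPM in homozygous replicate 1 to homozygous replicate 2 for the 7 tested genes on a log axis, with exact 95% counting intervals, and the 5th to 95th percentile of that ratio over all 9701 tested genes in grey (0.306 to 2.75). foxp3a and cd8a lie above the band, and runx3 and tcf7 lie near 1.

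Levels of different genes were compared per length, as CPM per kilobase of exon. In heterozygotes the order of mean levels was runx3 at 1.11 ± 0.172 (SD, n = 2), gata3 at 1.05 ± 0.449, lck at 0.934 ± 0.761, cd8a at 0.660 ± 0.376, zap70 at 0.437 ± 0.617, tcf7 at 0.373 ± 0.167 and foxp3a at 0.201 ± 0.285, with tbx21 and eomesa at 0 counts. Every neighbouring pair in that order overlapped between libraries. In homozygotes it was runx3 at 5.37 ± 0.654 (SD, n = 2), foxp3a at 4.93 ± 5.37, cd8a at 4.09 ± 3.88, lck at 3.86 ± 2.12, zap70 at 3.04 ± 1.80, tcf7 at 2.38 ± 0.240, gata3 at 0.799 ± 0.262, eomesa at 0.0774 ± 0.0574 and tbx21 at 0.0405 ± 0.0572. There the only neighbours that did not overlap were tcf7 with gata3 and gata3 with eomesa.

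Other genes of T cell receptor signalling were read from the same fit. Of 46 receptor, adaptor and kinase genes listed, 20 were found and 15 tested, with 13 higher, 2 lower and 0 called. Their median log2 fold change was 0.85, or 0.44 over the 18 genes tested without homozygous replicate 1 and 1.72 over the 17 tested without heterozygous replicate 2. Of the 15 genes, 2 reached the abundance the filter asks for only in homozygous libraries, prkcq and fynb, so these tallies and medians are descriptions too. skap1 is an adaptor gene of integrin activation in T cells. It was at 1.71 and 1.64 CPM in the heterozygous and 12.9 and 9.14 CPM in the homozygous libraries. Its log2 fold change was 2.71 ± 0.52 (SE). It was the 1 gene of the list that DESeq2 called (adjusted p = 0.0306, against 0.699 by edgeR), and with 1 library left out DESeq2 did not call it. DESeq2 gave no adjusted p for some genes of the list, cd4 and prkcq among them. prkcq, the gene of the protein kinase C that T cell receptor signalling engages, had 0 and 6 counts against 36 and 24. A CD4 gene, cd4, had 3 and 14 counts against 41 and 25. Another CD4 gene of the list, cd4-2, named after its values were seen, had 1 and 15 counts against 9 and 11. For cd4-2 the genotypes overlapped, and its log2 fold change was 0.30 ± 1.16 (SE). grap2b, a GADS adaptor gene, was at 10.6 and 5.91 CPM against 26.2 and 17.3.

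Transcription factors listed for lymphocytes, outside the 9, gave 19 higher, 4 lower and 0 called among 23 tested of 36 found and 45 listed. Their median was 0.79. The list is not restricted to genes of lymphocytes, and some were above the 9 genes in level, such as nfil3-5 at 93.7 to 190 CPM. The median was 0.57 over the 27 tested without homozygous replicate 1 and 1.43 over the 24 tested without heterozygous replicate 2, or 1.31 with genes at 0 counts in heterozygous replicate 1 at their bounds. It was 0.45 without heterozygous replicate 1 and 0.75 without homozygous replicate 2. Of the 23, 2 reached the filter's abundance only in homozygous libraries. The 4 with the smallest unadjusted p were stat4, a transducer of interleukin 12 signals (1.46 ± 0.42, SE), foxp1a, a forkhead gene (1.32 ± 0.44), rorcb, a ROR nuclear receptor gene (1.75 ± 0.70), and nfil3-5, of the NFIL3 bZIP family (0.82 ± 0.39). For all of them homozygous replicate 2 was the highest library, where homozygous replicate 1 was highest for 6 of the 7 genes above. rorcb was at 4.95 and 4.70 CPM in the heterozygous fish, against 6.66 and 25.7 in the homozygous fish, and its log2 fold change was 0.46 without homozygous replicate 2.

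The list of cytokine receptor genes also held JAK, STAT and SOCS genes of their signalling. Of 20 listed 16 were found and 14 tested, with 14 higher and 0 called. Of these jak1 and socs3b were nearly level, at log2 fold changes of 0.03 and 0.04. The median was 1.23, or 1.22 over the 15 tested without homozygous replicate 1 (13 higher) and 1.53 without heterozygous replicate 2. It was 0.86 without heterozygous replicate 1 and 0.98 without homozygous replicate 2. Of the 14, 2 reached the filter's abundance only in homozygous libraries. il21r.1, an interleukin 21 receptor gene, was at 1.02 and 3.50 CPM against 18.7 and 4.06. il7r, the gene of the interleukin 7 receptor that naive T cells need, was at 0.853 and 5.36 against 16.7 and 7.94. Their log2 fold changes were 2.28 and 1.95, or 0.85 and 1.36 without homozygous replicate 1. il12rb2 had 4 and 6 counts against 12 and 32. il6r, also used by myeloid cells, was at 1.54 and 2.19 CPM against 3.70 and 9.87. The libraries therefore ranked as for cd8a in the first 2 of these genes, and homozygous replicate 2 was highest for the last 2.

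Effector genes were too scarce for a comparison. Of 32 listed 16 were found and 1 was tested, tnfb, a tumour necrosis factor gene, with 1 and 4 counts in the heterozygous libraries and 16 in each homozygous library. tnfb reached the filter's abundance only in homozygous libraries. Among genes named after their values were seen, ifng1-1, an interferon gamma gene also named ifng1r, had 0 and 0 counts against 3 and 1. The listed ifng1 was not found. Also among these, the NK-lysin gene si:rp71-40n14.1 (listed as nkl.4) had 0 and 1 counts against 16 and 4. The Fas ligand gene faslg had 1 and 7 against 0 and 3, and the perforin gene prf1.5 4 and 7 against 0 and 2. The interleukin 4 gene il4 was at 0 in all 4 libraries.

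Trafficking genes had 10 higher and 3 lower among 13 tested (19 found of 29 listed), 0 called and a median of 1.14. The median was 0.52 over the 15 tested without homozygous replicate 1, and 2.20 over the 15 tested without heterozygous replicate 2, or 1.55 with the 3 genes at 0 counts in heterozygous replicate 1 set at their bounds. Of the 13, 1 reached the filter's abundance only in homozygous libraries. ccl19b and ccl19a.1 are genes of ligands of CCR7, which guides T cells to lymphoid tissue. ccl19b was at 25.8 and 23.4 CPM against 245 and 90.7. DESeq2 called it (adjusted p = 0.00411, against 0.699 by edgeR), though not without homozygous replicate 1. ccl19a.1 had 3 and 6 counts against 30 and 15. ccr9a, a gut-homing receptor gene, was at 19.6 and 40.4 CPM against 130 and 50.8. Its log2 fold change was 1.59, or 0.79 without homozygous replicate 1. ccl25b, a gene of the CCR9 ligand family, was at 7.51 and 53.0 CPM against 6.22 and 3.41. Its log2 fold change was -2.66, or -0.66 without heterozygous replicate 2. rag1 and rag2, the recombinase genes of immature lymphocytes, were at 0 and at 1 to 2 counts per library.

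**Figure D4:**
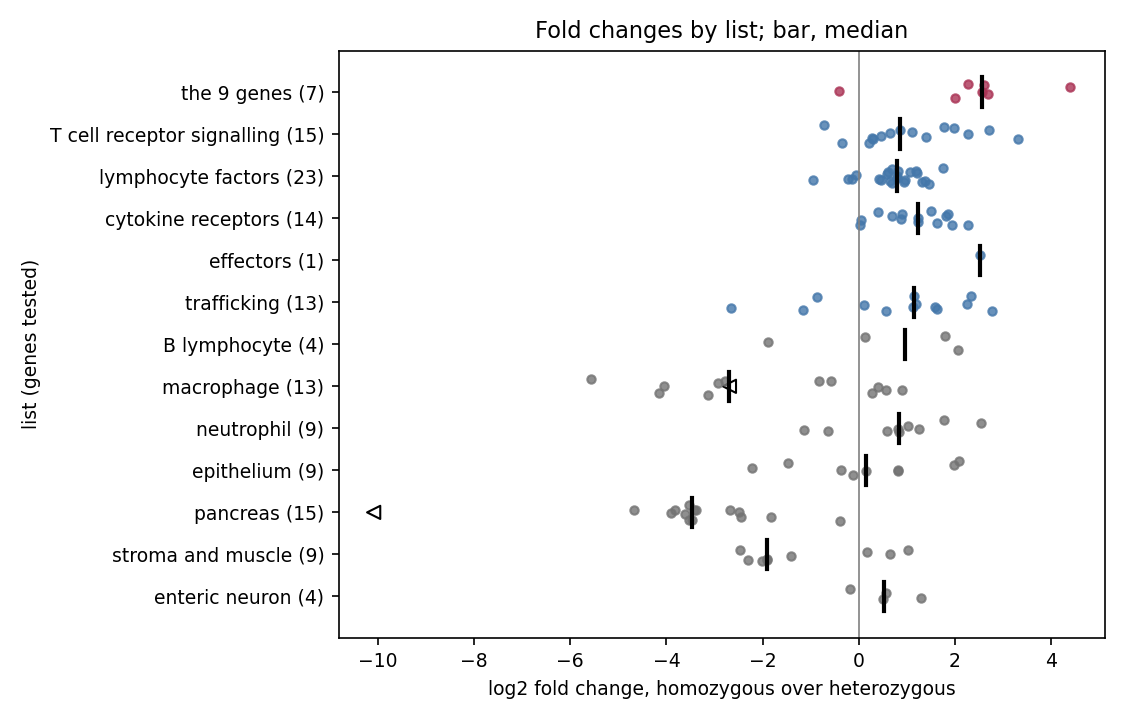
Log2 fold change of every tested gene of each list, with the number tested in parentheses, the 9 genes in red, other T lymphocyte lists in blue and markers of other cell types in grey. The lists in blue are not restricted to genes of T lymphocytes. Bars are medians, and open triangles are bounds for ccl34b.1 and ins, which had 0 counts in both homozygous libraries. The 7 tested genes have a median of 2.56, and the other T lymphocyte lists with over 1 tested gene have medians of 0.79 to 1.23. The B lymphocyte and neutrophil lists have medians of 0.97 and 0.84.

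The library profile most like the mean of the 7 tested genes was sought by the root mean square distance of centred log2 CPM over the 4 libraries. The nearest 5 genes outside the 9 were fosab (0.0781), arhgef3l (0.121), si:ch211-163b2.4 (0.126), cd4 (0.182) and si:dkey-24p1.1 (0.184). Over all tested genes the median distance was 1.32. cd4 is a gene of the other coreceptor, whose further gene cd4-2 was at a distance of 0.847. fosab encodes an immediate-early FOS factor and was at 17.6 and 45.3 CPM against 167 and 81.9 in homozygotes. Among the 7 genes themselves lck was nearest to the mean profile (0.113) and gata3 farthest (1.27).

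Markers of other cells were read in the same libraries. Of 8 B lymphocyte genes found, 4 were tested, 3 of them higher in homozygotes, with a median log2 fold change of 0.97. Without heterozygous replicate 2 the median was 2.31 over the 6 then tested, or 1.56 with genes at 0 counts in heterozygous replicate 1 at their bounds. It was 0.78 over the 5 tested without homozygous replicate 1. The 8 genes' summed level was 17.4 and 31.4 CPM in the heterozygous libraries, against 25.3 and 26.6 in the homozygous ones, and cd81b, a tetraspanin gene, took a large part of it at 10.1 and 17.9 CPM against 4.44 and 3.14. blnk, a B cell receptor adaptor gene, was at 3.07 and 1.42 CPM against 9.92 and 8.67.

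Neutrophil genes were higher in 7 of 9 tested, with a median of 0.84, or 0.40 without homozygous replicate 1 and 1.89 (1.74 at bounds) without heterozygous replicate 2. Of the 9, 1 reached the filter's abundance only in homozygous libraries. With all libraries these B lymphocyte and neutrophil medians lay in the range of the T lymphocyte lists outside the 9 genes, and no difference between lists was tested. The 11 neutrophil genes summed to 1025 and 393 CPM against 783 and 730, mostly from cebpa, cebpb and ncf1, with npsn at 0 counts throughout. mpx, the neutrophil peroxidase gene, had 7 and 77 counts against 184 and 70.

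Macrophage genes were lower in 9 of 13 tested, irf8 itself among them. Their median was -2.79, or -2.69 with ccl34b.1 at its bound, and -2.55 over the 14 tested without homozygous replicate 1. The median was -0.43 over the 10 tested without heterozygous replicate 2, a different set of genes. Without that library c1qa, havcr1 and csf1ra fell under the filter's minimum total count and left the list. Heterozygous replicate 1 had 12 counts of havcr1 against 0 and 2 in the homozygous libraries, and 10 of csf1ra against 1 and 3. The change in the median therefore does not measure a change in these genes. Of the 13, 6 reached the filter's abundance only in heterozygous libraries. The complement gene c1qa was at 12 and 41 counts against 0 and 1. The 14 macrophage genes summed to 148 and 155 CPM against 130 and 182, a sum in which slc7a7, an amino acid transporter gene, was at 85.9 and 69.7 CPM against 82.6 and 147.

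The 10 stromal and muscle genes summed to 392 and 2024 CPM against 2411 and 366, and 7 enteric neuron genes to 10.8 and 44.2 against 44.4 and 14.0. Both sums were thus high in heterozygous replicate 2 and homozygous replicate 1. The 9 genes were at 18.8 and 86.8 CPM in those libraries. In homozygous replicate 1 the stromal and muscle sum came mostly from acta2 (1261 CPM) and tagln (837 CPM). The collagen gene col1a1a was at 65.9 and 322 CPM against 59.4 and 36.8. Of 9 stromal and muscle genes tested, 3 were higher and 6 lower, with a median log2 fold change of -1.91. That median was -1.67 without homozygous replicate 1 and 0.26 without heterozygous replicate 2. The 9 epithelial genes summed to 29852 and 18555 against 17128 and 18538, a sum with only heterozygous replicate 1 apart. Single genes went both ways, with 5 higher and 4 lower. fabp6 was at 6443 and 11863 CPM against 1505.5 and 2444, and slc15a1b at 276 and 196 against 740 and 1249. With all 4 libraries DESeq2's Wald test called both (adjusted p = 0.0121, against 0.699 by edgeR). Among the other cell type markers DESeq2 called lgals3bpb (adjusted p = 0.0341), ins (0.0395) and gcga (0.00891), all lower in homozygotes. The 16 pancreas genes summed to 9644 and 199890 against 24584 and 2191. What part these cell mixtures have in the T lymphocyte values was not tested.

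**Figure D5:**
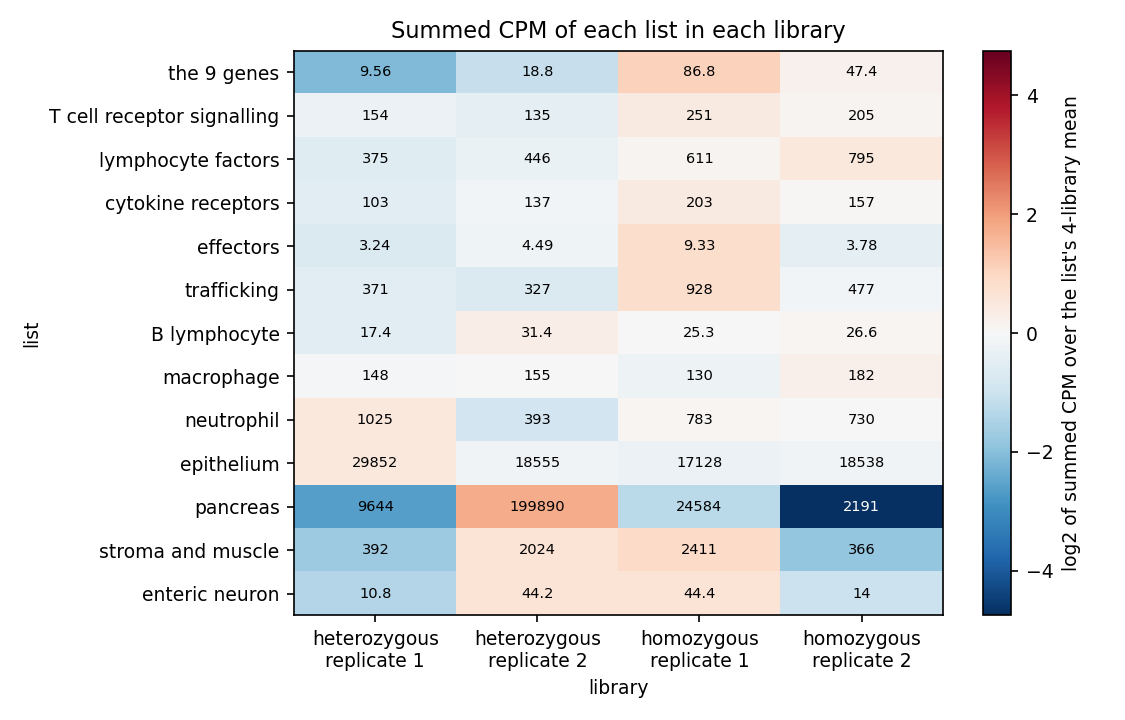
Summed CPM of each list in each library, printed in each cell, with colour for log2 of that sum over the list's mean of 4 libraries. The 9 genes go from 9.56 and 18.8 in heterozygotes to 86.8 and 47.4 in homozygotes, and pancreas genes reach 199890 in heterozygous replicate 2.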

How the data were processed

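Whole-gut messenger RNA of 2 irf8 heterozygous and 2 homozygous zebrafish was captured on oligo-dT beads and made into stranded libraries, per the labels' protocols. The authors deposited per-gene counts of read pairs (whole numbers), made with featureCounts from Subread 1.5.2 with strand setting 2 on the UCSC annotation of danRer10, per the file headers. No label or header names the aligner. The authors' deposited table of log2 fold changes for 76 genes lists 0 of the 9 genes, and its values were not used.

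Genes were filtered with filterByExpr (minimum count 10, minimum total 15), scaled by TMM and compared by the quasi-likelihood test of edgeR 4.0.16 under R 4.3.3, genotype being the single term. Benjamini-Hochberg adjustment ran over all tested genes, with calls at 0.05. Standard errors are those implied by the F statistic. Log2 CPM for profiles used a prior count of 2. The scripts were tested on simulated data. Intervals are exact at 95% and cover counting error only, as no molecular identifiers are described.

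The genes and all lists were chosen with earlier results of these data known, and 1 further gene of the set is not reported here. Of 263 other list entries, 169 were found by name, 18 by synonym (assembly GRCz12tu, names only) and 76 were not found. Named genes are the 9 genes, up to 4 genes of each T lymphocyte list by unadjusted p, and the 5 most alike in profile. Others are identified as named after their values were seen or serve as cell type markers. fynb, jak1, socs3b, il4, rag1 and rag2 were named outside these rules. The replicate numbers were not taken to pair animals, as the labels do not say that they do. Deviations of same-numbered libraries correlated at 0.064 across genes, a value from too few libraries to decide the question. The alternatives were DESeq2's size factors, 2 other count filters, the Wald test of DESeq2 1.42.0, a block for the replicate number, the pancreas list left out, and each library left out in turn. DESeq2 without each library was added after the data were seen, as were a comparison of heterozygous replicate 1 with homozygous replicate 2 alone and bounds for genes at 0.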

Additional observations from a re-analysis of the deposited data

How the results depend on the processing

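With 2 libraries per genotype only differences larger than the spread within a genotype could be called, and scarce genes such as tbx21 and eomesa could not be compared at this depth. DESeq2's Wald test called 53 genes and 1 (runx3) of the 4 tested genes it gave an adjusted p, where edgeR called 0 of each, with 628 genes at an unadjusted p under 0.05. Leaving out 1 library, edgeR called 0 to 45 genes, the 45 without heterozygous replicate 1, and 0 of the 7. With the replicate number as a block, 0 genes were called and the median log2 fold change of the 7 was 2.26, and this block changed no call among them. That median ranged from 1.99 to 3.24 over all alternatives, and it was 2.28 for heterozygous replicate 1 against homozygous replicate 2 alone. The 6 genes higher in homozygotes kept that direction in every alternative run. Both homozygous libraries lay above both heterozygous ones for each of them, so leaving out a library could hardly reverse it. The kept direction is therefore no support. gata3 ranged from -0.75 to 0.10 with 1 library left out, going from -0.41 to 0.10 without heterozygous replicate 2 and to 0.11 in DESeq2 without that library, and the cause was not tested. DESeq2's size factors left the order of levels per length as it was.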
